A study of Mus musculus with 12 samples.

Results

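The arrays labelled arsenite non-tumour and arsenite normal were compared with each other: liver taken outside a tumour against liver labelled normal, both from 74-week-old F2 male C3H/HeN mice of one exposed line. The members are the 3 arrays titled non-tumor and the 3 titled normal of the arsenite F2 mice, 6 of the 12 arrays of the series, taken by their titles alone. In that line sodium arsenite at 85 ppm was in the tap water of pregnant F0 dams over gestation days 8 to 18, F1 mice were mated with each other at 10 weeks, and neither F1 nor F2 mice were given arsenite. Both groups therefore share strain, sex, age and ancestral exposure, and differ in the label of the tissue. Another group, non-tumour liver of F2 males whose F0 dams drank plain tap water (3 arrays of the same age, strain and sex), added to the estimate of the spread and places the levels of the genes named. Arsenite tumours entered no fit of the main results. The labels do not say how a liver came to be called normal, how far from a tumour the non-tumour piece was cut, or whether equal replicate numbers mark the same mouse, so the p-values measure the spread between numbered samples.

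The liver is the main site of cholesterol synthesis, plasma protein secretion and detoxification, and many of its genes follow the time of day and the feeding state. C3H males are prone to spontaneous liver tumours with age. Liver beside a tumour shares its blood supply and its immune cells with the tumour, which is why such tissue is often set against liver free of tumours. The pieces were bulk tissue, so fewer cells of a type and less RNA per cell cannot be told apart in any value given here.

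Levels are the log2 of an Agilent array's processed spot signal minus the log2 of the 75th percentile of its non-control spots, so that 0 stands for the signal of that percentile and 1 unit for a 2-fold change. Levels of different probes are not comparable, whereas differences between groups are. Genes were tested if their probe exceeded background clearly on all 3 arrays of 1 or more of the 3 groups, which left 17063 genes. The arrays of the comparison had 40.5 to 45.3% of their spots well above background and a 75th percentile of 152.7 to 203.7 intensity units, and arsenite normal 1 was the dimmest on both counts. The 3 normal arrays were on slide 1 by themselves, while the arsenite and control non-tumour arrays shared slide 2. Slide and tissue label therefore cannot be told apart in this comparison, and every difference below carries that limit. Across genes, the log2 levels of a non-tumour and a normal array correlated at 0.987 to 0.993, those within the non-tumour group at 0.989 to 0.993 and those within the normal group at 0.991 to 0.994, with genes not being independent replicates.

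Hepatocyte markers were high in both groups. Albumin (Alb) was at 10.81, 10.84 and 10.72 on the non-tumour arrays and 11.08, 10.86 and 10.76 on the normal arrays, and the transthyretin gene Ttr and the hepatocyte transcription factor Hnf4a differed by -0.05 ± 0.11 and -0.14 ± 0.13 (SE, n = 3 each). With arrays shifted by their median instead, the differences of all 3 genes lay above 0. The fetal and tumour marker Afp had no probe past the filter, and neither had Gpc3 or H19. That is, none of the 3 groups outside tumours had these tumour transcripts clearly over background on all 3 of its arrays.

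No gene passed the test: limma, an empirical Bayes linear model, called 0 of 17063 genes at an adjusted p under 0.05 (Benjamini-Hochberg), which is 0% in the background of all genes, and the smallest adjusted p was 0.11. At an unadjusted p under 0.05 there were 1392 genes (8.16%), 598 higher (3.5%) and 794 lower (4.65%) in non-tumour liver. The 3 non-tumour arrays lay wholly above the 3 normal arrays for 1389 genes (8.14%) and wholly below them for 1233 (7.23%). The split by direction depends on the scaling: with each array shifted by its median in place of the 75th percentile, the median difference of all genes moved to 0.288, and 3674 genes were higher and 129 lower at an unadjusted p under 0.05. Only 20 genes (0.117%) were both apart and at least 2-fold higher, and 59 (0.346%) both apart and at least 2-fold lower. Without the dim array arsenite normal 1 limma called 13 genes, all lower in non-tumour liver. The count was also 13, again all lower, without normal 3, and 5 without normal 2. The filter then asked only for the normal arrays left in, and the genes tested were 17579, 17132 and 17155 in the same order. A gene can then pass through the normal group where it is high, so these counts are no support for a shift. The low unadjusted p-values gathered among dim genes: 643 of the 4266 genes in the dimmest of 4 equal bins by mean level were under 0.05, against 143 of 4266 in the brightest bin.

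**Figure D1:**
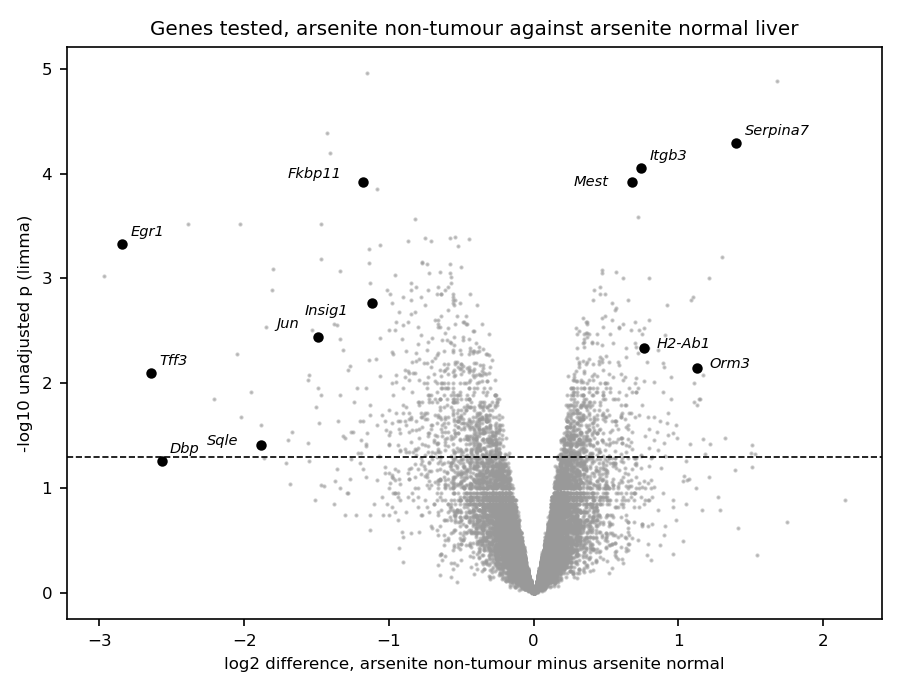
Each point is 1 of the 17063 genes tested; the x axis is the log2 difference, arsenite non-tumour minus arsenite normal (n = 3 arrays each), and the y axis is -log10 of limma's unadjusted p, with a dashed line at 0.05. Serpina7 lies near the top on the right, the large differences of Egr1 and Dbp have larger p-values, and no gene passes after adjustment.

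Because nothing was called, the genes below are given as values. They are drawn from the 15 smallest p-values in each direction among genes with a symbol, and members of gene lists for liver pathways; the list members named were chosen after their values were seen.

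Single genes of stellate cells and of the matrix around them had lower values in non-tumour liver, though not as a list. The 19 stellate and fibroblast genes tested had a median of -0.03, with 8 above 0 and 11 below it. In that list 1 gene lay apart higher (5.26%, against 8.14% of all genes) and 2 apart lower (10.5%, against 7.23%). The 2 lower ones were the collagen gene Col1a1 (-0.79 ± 0.26) and Reln, which encodes the matrix protein reelin (-0.56 ± 0.19). With normexp background correction they were at -0.48 and -0.26. Collagen Col1a2, counted in the list of matrix genes, was at 1.41, 1.30 and 1.12 on non-tumour arrays and 1.94, 1.70 and 1.82 on normal arrays, with no overlap (-0.54 ± 0.12, SE, n = 3 each, limma adjusted p = 0.36).

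Fkbp11, a folding enzyme of the endoplasmic reticulum in secretory cells, was not well above background on any of the 3 non-tumour arrays and was on all 3 normal arrays, which bounds it at least 1.76-fold lower in non-tumour liver (limma adjusted p = 0.27). For such a bound, each dim signal was lifted to the lowest value that still counted as above background on that array. The bound holds for the processed signal alone. Under normexp background correction the log2 difference of Fkbp11 was -0.39, which is smaller than the bound. Wfdc12, a small protease inhibitor of the whey acidic protein family, was at -1.74, -1.50 and -1.32 on non-tumour arrays against -0.48, -0.19 and -0.72 on normal arrays. Ralb, a small GTPase of the RAS family, was at 1.86, 1.79 and 1.72 against 2.32, 2.21 and 2.21. Both were apart between the groups, and the control non-tumour arrays of Wfdc12 (-1.84, -2.12 and -1.48) lay with the arsenite non-tumour arrays. Others among the 15 genes with the smallest p and lower values were Egr1, described with its list, the cytoskeletal linker gene Eppk1 (-0.52 ± 0.10), the calcium channel subunit gene Cacna2d2 (-0.77 ± 0.15), the olfactory receptor gene Olfr1441 (-1.08 ± 0.17), the zinc finger gene Zfp608 (-0.57 ± 0.12), Jmjd4, well above background on 1 non-tumour array, Fbxw27 (-0.57 ± 0.12), A930018P22Rik (-0.50 ± 0.10), and Gm5639 (-0.87 ± 0.16) with Gm5640 (-0.82 ± 0.14), whose probes may share signal. Foxr1 passed the filter through the control arrays alone, as it was well above background on 0 non-tumour arrays and 1 normal array, so no fold is given for it. Normexp background correction gave smaller differences for Wfdc12 (-0.58), Cacna2d2 (-0.38), Olfr1441 (-0.51), Zfp608 (-0.29) and Fbxw27 (-0.27). The same held for A930018P22Rik (-0.17), Gm5639 (-0.42) and Gm5640 (-0.50), while Ralb was at -0.43 and Eppk1 at -0.45.

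Among genes with higher values in non-tumour liver, Serpina7, which encodes thyroxine-binding globulin, had the smallest p (probe on mm9 chromosome X, 135615848 to 135616502). Its levels were 1.59, 2.18 and 1.57 on non-tumour arrays, 0.33, 0.40 and 0.41 on normal arrays, and 1.31, 1.86 and 1.69 on control non-tumour arrays. The 3 normal arrays lay close together and below all others, with a log2 difference of 1.40 ± 0.19 (SE, n = 3 each, limma adjusted p = 0.22). Itgb3, an integrin subunit of platelets and endothelium, was at -1.01, -0.90 and -0.63 against -1.66, -1.54 and -1.57 (0.74 ± 0.11, limma adjusted p = 0.25). Mest, an imprinted gene expressed from the paternal allele, was at -1.69, -1.81 and -1.56 against -2.36, -2.26 and -2.47 (0.68 ± 0.10, limma adjusted p = 0.27). Both were apart, and both had control non-tumour levels between the groups and nearer to arsenite non-tumour liver. With normexp background correction Itgb3 differed by 0.43 and Mest by 0.23. Of the 12 imprinted genes tested, 1 lay apart higher (8.33%, against 8.14% of all genes) and 2 lower (16.7%, against 7.23%), and their median was -0.08.

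Other genes among the 15 smallest p-values with higher values are known from several cell types. The atypical chemokine receptor gene Ackr1 differed by 0.72 ± 0.12, the sinusoidal lectin gene Clec4g by 0.46 ± 0.10, the peroxisomal carnitine octanoyltransferase gene Crot by 0.49 ± 0.10 and the cytosolic aspartate aminotransferase gene Got1 by 0.47 ± 0.10. Sqstm1, whose protein p62 carries cargo to autophagosomes, was at 3.47, 3.31 and 3.18 on non-tumour arrays and 2.79, 2.88 and 2.88 on normal arrays (0.47 ± 0.09). Mmd2 (1.10 ± 0.24), Armc9 (0.57 ± 0.12), Tbc1d19 (0.62 ± 0.13) and Praf2 (0.65 ± 0.14) were also among them, with Clca3a2 (1.30 ± 0.25) and Clca3a1 (1.21 ± 0.25), chloride channel accessory genes so alike that their probes may share signal. Sizes depended on the background correction: with normexp Mmd2 was at 0.59, Armc9 at 0.29, Tbc1d19 at 0.17 and Praf2 at 0.22. Clca3a2 was then at 0.60, Clca3a1 at 0.68 and Ackr1 at 0.48, while Clec4g, Crot, Got1 and Sqstm1 were at 0.45 to 0.54. All 15 genes of this set lay apart between the groups, as the choice by p favours, and their limma adjusted p was 0.22 to 0.36.

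**Figure D2:**
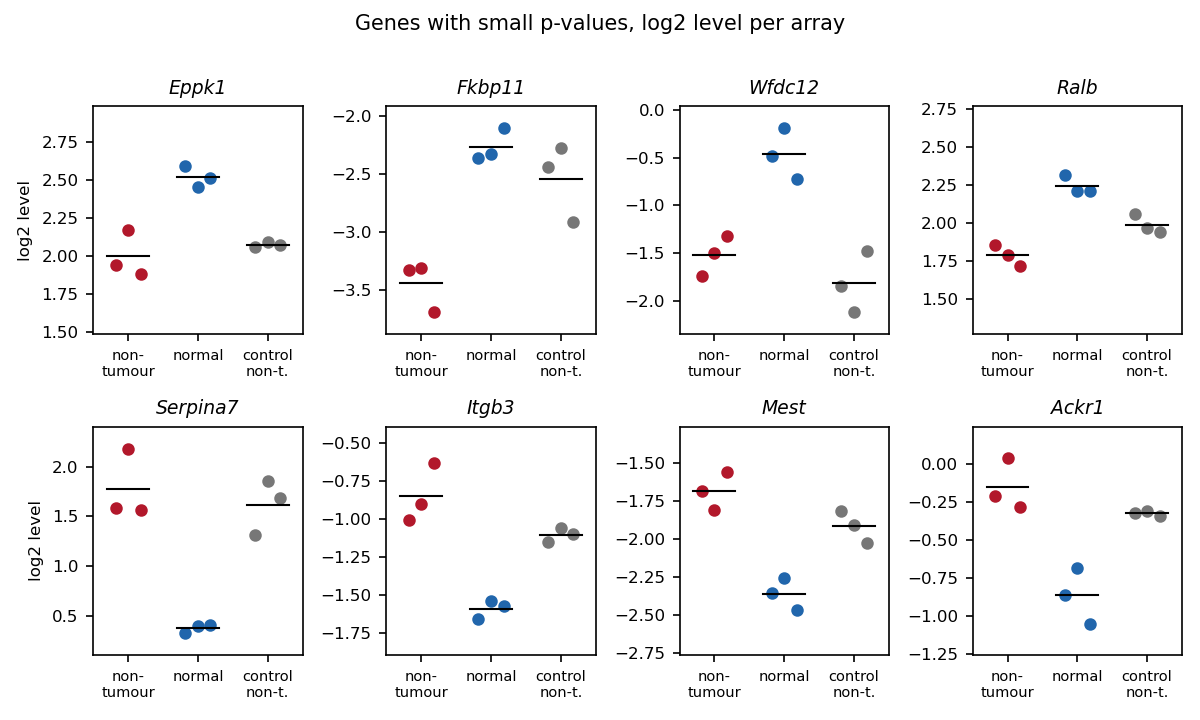
Log2 level per array (points) and group mean (line) of 8 genes with small p-values, in arsenite non-tumour (left), arsenite normal (middle) and control non-tumour liver (right), n = 3 each. In the upper row the arsenite non-tumour arrays lie below the normal arrays and in the lower row above them; the control non-tumour arrays of Wfdc12, Serpina7 and Ackr1 lie with or close to the arsenite non-tumour arrays.

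Cholesterol synthesis genes had lower values in non-tumour liver nearly throughout, though none passed the test. The pathway runs from acetyl-CoA through mevalonate and squalene to cholesterol, and its genes are switched on together by the transcription factor SREBP2 when sterols in the cell run low. Several of the promoters also carry the CCAAT box, to which the factor NF-Y binds. Windows of 250 bases before to 50 after the gene start were found for 17 of the 22 tested members in RefSeq (GRCm38.p6), and CCAAT was present on either strand in 15 of those 17, against 37.9% of all 27025 promoter windows. The sterol element letters TCACNCCAC (N is any base, both strands) were present in 1 of the 17, Hmgcs1, against 1.22% of all windows. The 3 windows with the most matches in the list are printed here, with CCAAT or its reverse complement ATTGG, and TCACNCCAC, in capitals. They lie at chr13:119690101-119690400 (plus strand) for Hmgcs1, chr5:114444019-114444318 (plus strand) for Mvk and chrX:72918271-72918570 (plus strand) for Nsdhl, each 5′ to 3′.
Hmgcs1: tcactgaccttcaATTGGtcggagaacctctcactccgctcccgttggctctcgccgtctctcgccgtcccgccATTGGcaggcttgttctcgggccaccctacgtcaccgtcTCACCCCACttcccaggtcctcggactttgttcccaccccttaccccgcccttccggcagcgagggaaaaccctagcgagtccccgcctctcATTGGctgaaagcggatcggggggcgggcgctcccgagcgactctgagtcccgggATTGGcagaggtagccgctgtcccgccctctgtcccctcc
Mvk: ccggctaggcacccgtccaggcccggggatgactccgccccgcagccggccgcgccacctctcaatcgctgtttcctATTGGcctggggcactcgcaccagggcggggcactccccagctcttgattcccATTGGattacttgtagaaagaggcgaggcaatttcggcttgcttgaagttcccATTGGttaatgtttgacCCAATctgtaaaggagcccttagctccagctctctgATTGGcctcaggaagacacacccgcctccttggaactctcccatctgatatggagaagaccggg
Nsdhl: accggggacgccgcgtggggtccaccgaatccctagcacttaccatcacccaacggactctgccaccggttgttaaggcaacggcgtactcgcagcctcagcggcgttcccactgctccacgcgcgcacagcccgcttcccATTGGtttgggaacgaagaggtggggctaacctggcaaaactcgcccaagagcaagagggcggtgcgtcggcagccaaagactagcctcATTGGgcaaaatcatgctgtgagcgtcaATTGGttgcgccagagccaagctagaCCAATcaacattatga

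The matches are a description of letters in these windows, not of bound sites. Of the 22 cholesterol synthesis genes tested, 21 had lower values in non-tumour liver, with a median log2 difference of -0.78, where 49.4% of all genes lay below 0 and 50.6% above it. A difference at an unadjusted p under 0.05 was found for 8 of them, all lower, where 4.65% of all genes were lower at that threshold. The arrays of the 2 groups were apart for only 2 (9.09%, against 7.23% of all genes), and the smallest limma adjusted p was 0.52. The small difference of Ggps1, which makes a branch product of the pathway, was among these 2 (-0.15 ± 0.14), and it had the opposite sign with arrays shifted by their median.

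Sqle, the squalene epoxidase, was at 2.18, 4.55 and 2.74 against 5.07, 5.74 and 4.32. Its second non-tumour array lay inside the normal range and the other two well below it (-1.88 ± 0.77, limma adjusted p = 0.58). The same array order was found for Hmgcs1, which encodes a synthase before mevalonate, at 4.14, 5.61 and 4.28 against 6.29, 6.50 and 5.32, and for Idi1, the isopentenyl diphosphate isomerase, at 4.06, 5.58 and 4.41 against 5.92, 6.23 and 5.48. Over the whole list, the median distance of an array from the mean of the normal group was -1.20, -0.15 and -0.96 for the 3 non-tumour arrays and 0.10, 0.29 and -0.39 for the normal arrays. Non-tumour 2 was thus above normal 3. The control non-tumour arrays were at 0.21, -0.79 and -0.36, and overlapped both arsenite groups.

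Other enzymes of the pathway spread widely. The decarboxylase gene Mvd differed by -1.55 ± 0.70, the sterol oxidase gene Msmo1 by -1.30 ± 0.51, the demethylase gene Cyp51 by -1.16 ± 0.48, Nsdhl by -0.99 ± 0.38 and the mevalonate kinase gene Mvk by -0.78 ± 0.28. Late in the pathway Ebp, a sterol isomerase gene, differed by -0.11 ± 0.09. Acat2, a thiolase that joins acetyl-CoA units, was the member with the opposite sign (0.25 ± 0.15).

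Among 15 tested targets and regulators of SREBP2, 5 lay apart lower (33.3%, against 7.23% of all genes) and 2 apart higher (13.3%, against 8.14%). The 5 included Insig1, Tmem97 (-0.32 ± 0.19) and Scap, which encodes the escort of SREBP proteins (-0.17 ± 0.09). Insig1, a brake on the processing of SREBP proteins that is itself a target of them, was at 2.57, 2.94 and 3.09 on non-tumour arrays, 4.09, 4.47 and 3.41 on normal arrays, and 3.32, 3.14 and 3.25 on control non-tumour arrays. Every non-tumour array was below every normal array (-1.12 ± 0.25, SE, n = 3 each, limma adjusted p = 0.36).

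The 2 genes apart higher act against cholesterol gain: Mylip encodes a ubiquitin ligase that limits lipoprotein uptake (0.24 ± 0.12), and Abcg1 a transporter that exports sterols (0.37 ± 0.12). Both are known as targets of the sterol sensor LXR. Abcg1 was at 1.75, 1.33 and 1.70 on non-tumour arrays and 1.26, 1.19 and 1.23 on normal arrays. The gene of SREBP2 itself, Srebf2, differed by -0.41 ± 0.23, with overlap. Fatty acid synthesis genes had a median of -0.30 over 20 tested, with 16 below 0 and 2 apart lower (10%, near the 7.23% of all genes). Fatty acid synthase Fasn was at 0.40, 2.38 and 1.08 against 2.45, 3.24 and 1.79 (-1.21 ± 0.52), and Thrsp, a lipogenic regulator, at 3.67, 6.37 and 4.21 against 6.58, 7.38 and 5.93 (-1.88 ± 0.69). In both genes non-tumour 2 lay inside the normal range, as for Sqle.

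Clock genes were measured next. The clock runs on a loop in which ARNTL and CLOCK switch on PER, CRY and NR1D genes, which in turn repress it, and the PAR bZIP factors Dbp, Tef and Hlf are outputs of the same loop, with Nfil3 as their antagonist. The labels give no hour of killing. Of 17 tested, 7 lay apart lower (41.2%, against 7.23% of all genes) and 2 apart higher (11.8%, against 8.14%), with a median of -0.39 (-0.11 with arrays shifted by their median) and a smallest limma adjusted p of 0.50. Dbp was at 2.27, 2.81 and 3.33 on non-tumour arrays, 5.01, 5.67 and 5.43 on normal arrays, and 5.85, 0.64 and 5.37 on control non-tumour arrays. The groups of the arsenite line were apart, but the 3 control arrays alone spanned more than both, and the difference of -2.57 ± 1.16 had a limma adjusted p of 0.62. That SE includes the spread of the control arrays. In the fit of the 6 arsenite-line arrays alone it was 0.29 (limma adjusted p = 0.15), and that fit called 0 genes.

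Tef reached at most 5.21 on non-tumour arrays, against 5.64, 6.18 and 5.95 on normal arrays (-0.85 ± 0.34), and Hlf was at 2.53, 2.15 and 2.40 against 2.63, 3.09 and 2.82 (-0.49 ± 0.18). The other members apart lower were the clock repressors Cry2 (-0.34 ± 0.13), Bhlhe40 (-0.92 ± 0.39) and Nr1d2 (-0.51 ± 0.30) and the clock-driven mitotic kinase gene Wee1 (-0.97 ± 0.31). Normexp background correction put Wee1 at -0.43, and Cry2, Bhlhe40 and Nr1d2 at -0.32, -0.84 and -0.43. The 2 apart higher were of the opposite phase in mouse liver. Nfil3 was at 4.54, 4.59 and 4.50 on non-tumour arrays and 3.70, 3.75 and 3.82 on normal arrays, with control arrays at 2.60, 4.92 and 3.21. Arntl was at 1.81, 1.70 and 1.93 against 1.53, 0.47 and 1.04, with control arrays at -0.13, 2.04 and 0.81. Non-tumour arrays were tight and above normal arrays for both, while control non-tumour 2, the array with the lowest Dbp, had the highest Nfil3 and Arntl.

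The letters CACGTG, the E-box to which ARNTL and CLOCK bind, were found in the windows of 2 of the 13 clock members with one, Per1 and Tef, against 7.24% of all windows. The Tef window is shown with the match in capitals, at chr15:81802423-81802722 (plus strand, GRCm38.p6).
Tef: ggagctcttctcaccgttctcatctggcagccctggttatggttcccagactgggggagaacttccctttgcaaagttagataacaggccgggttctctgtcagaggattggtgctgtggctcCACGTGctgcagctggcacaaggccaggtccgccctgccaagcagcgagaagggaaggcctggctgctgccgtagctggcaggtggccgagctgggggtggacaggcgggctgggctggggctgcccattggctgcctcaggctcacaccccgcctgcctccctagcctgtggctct

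Immediate early genes encode factors that are switched on within minutes of a stimulus such as growth factors, stress or handling of tissue. Of 24 tested, 7 lay apart lower (29.2%, against 7.23% of all genes) and 0 apart higher (against 8.14%), with a median of -0.37 (-0.09 with arrays shifted by their median). At an unadjusted p under 0.05 there were 6, all lower, where 4.65% of all genes were lower. Egr1, a zinc finger factor downstream of MAP kinase signalling, had the largest difference of the list. It was at -1.11, -0.83 and -0.82 on non-tumour arrays, 3.31, 1.01 and 1.43 on normal arrays, and -1.44, -0.68 and -1.47 on control non-tumour arrays. The 3 normal arrays were all high and differed among themselves, and both non-tumour groups were low (-2.84 ± 0.52, SE, n = 3 each, 7.15-fold, limma adjusted p = 0.36).

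Jun, the AP-1 subunit, was at 1.55, 1.55 and 1.06 against 2.71, 2.84 and 3.09, with control non-tumour arrays at 3.54, 1.93 and 2.11. Dusp1, a phosphatase that ends MAP kinase signals, was at 0.13, 0.14 and -0.08 against 0.91, 0.90 and 1.35, with control arrays at 1.05, 0.24 and 0.39. Both were apart in the arsenite line, at -1.49 ± 0.38 (limma adjusted p = 0.40) and -0.99 ± 0.21 (limma adjusted p = 0.36), and for both control non-tumour 1 was as high as, or higher than, some normal arrays. In the fit without the control arrays the SE was 0.17 for Jun (limma adjusted p = 0.15) and 0.15 for Dusp1 (0.29). For Egr1 it was 0.56 (0.39). The kinase gene Sik1 (-1.47 ± 0.47), the damage-response gene Gadd45a (-0.84 ± 0.23), Klf10 (-0.73 ± 0.30) and the mRNA-decay factor gene Zfp36 (-0.52 ± 0.38) were the other members apart. Normexp background correction put Sik1 at -0.73, Gadd45a at -0.57, Klf10 at -0.59 and Zfp36 at -0.41. Egr1 was then at -2.18, Jun at -1.36 and Dusp1 at -0.85. The list was not uniform: Myc, Btg1, Socs3 and Gadd45g had differences of 0.42 to 0.79, with overlap. Fos and several relatives had no probe past the filter.

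The letters TGACGTCA, the cyclic AMP response element, were found in 2 of 19 windows of this list, Btg2 and Dusp1, against 1.88% of all windows. The Dusp1 window lies at chr17:26508423-26508722 (minus strand, GRCm38.p6), with the match in capitals.
Dusp1: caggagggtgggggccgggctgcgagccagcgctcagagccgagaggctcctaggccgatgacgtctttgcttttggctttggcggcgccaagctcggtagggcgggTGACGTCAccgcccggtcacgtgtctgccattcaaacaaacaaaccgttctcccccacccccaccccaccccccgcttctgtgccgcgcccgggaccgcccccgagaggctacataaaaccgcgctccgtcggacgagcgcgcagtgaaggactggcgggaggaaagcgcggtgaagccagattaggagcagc

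**Figure D3:**
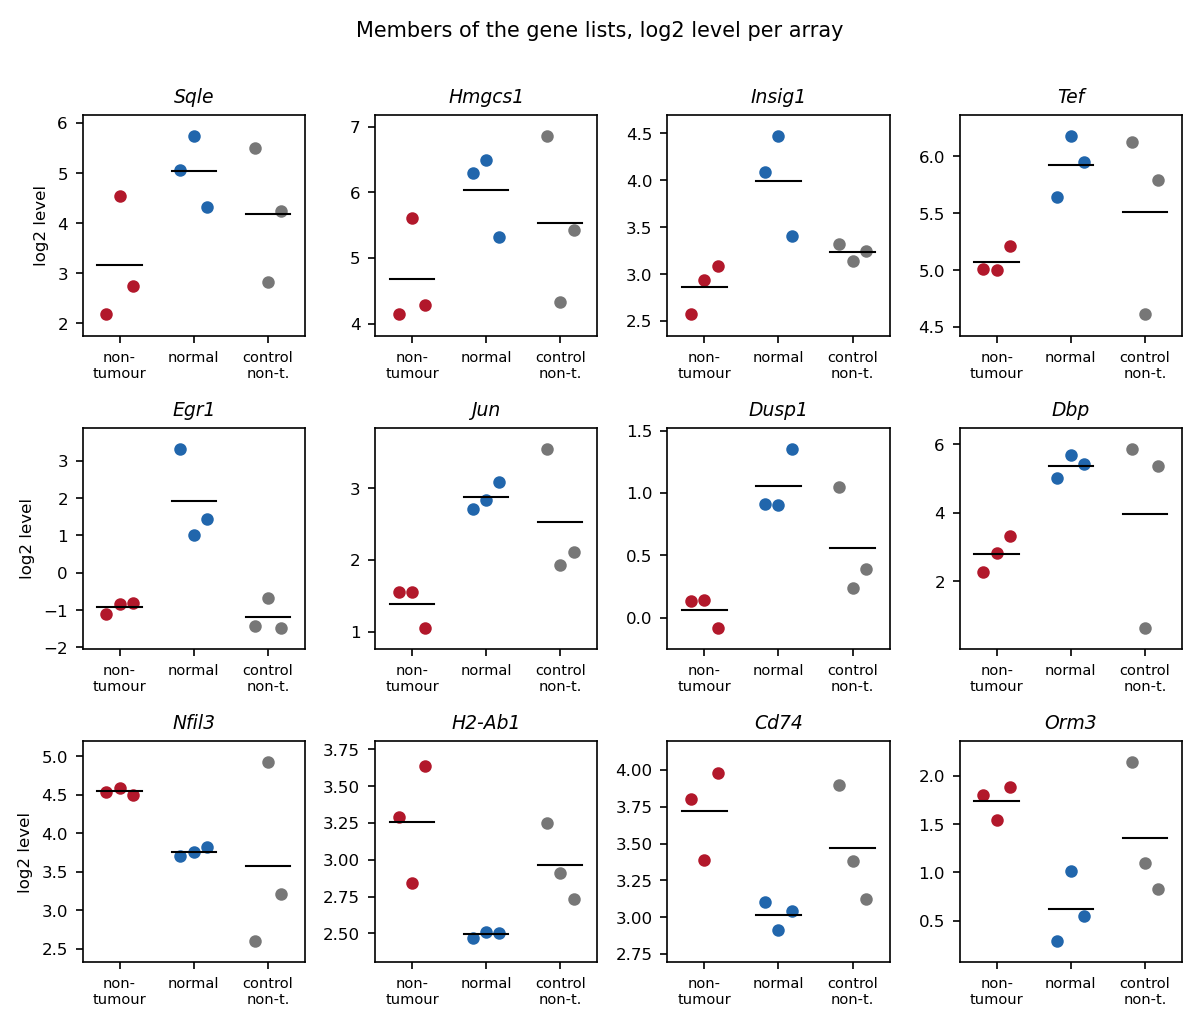
Log2 level per array (points) and group mean (line) of 12 members of the gene lists in arsenite non-tumour (left), arsenite normal (middle) and control non-tumour liver (right), n = 3 each. For all but Sqle and Hmgcs1 the arsenite non-tumour and normal arrays do not overlap, and for Dbp and Nfil3 the control non-tumour arrays spread across both.

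Genes for antigen presentation were among those with higher values. MHC class II molecules present peptides on macrophages, dendritic cells and B cells, and the invariant chain encoded by Cd74 escorts them. Of 11 listed genes 5 were tested, all with higher values, all at an unadjusted p under 0.05 (against 3.5% of all genes), and 4 apart (80%, against 8.14%). H2-Ab1 was at 3.29, 2.84 and 3.64 on non-tumour arrays, 2.47, 2.51 and 2.50 on normal arrays, and 3.25, 2.91 and 2.73 on control non-tumour arrays (0.76 ± 0.20, SE, n = 3 each, limma adjusted p = 0.43). Cd74 was at 3.80, 3.39 and 3.98 against 3.10, 2.91 and 3.04 (0.71 ± 0.21, limma adjusted p = 0.47). For both, the 3 normal arrays were close together and non-tumour 2 was the lowest of its group.

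H2-Eb1 (0.65 ± 0.24), H2-DMa (0.62 ± 0.19) and H2-DMb1 (0.67 ± 0.23), of which H2-DMa and H2-DMb1 encode the peptide loader, were also lowest on non-tumour 2 within the non-tumour group. Under normexp background correction H2-DMa differed by 0.28, H2-Eb1 by 0.65 and H2-DMb1 by 0.58. Macrophage markers, as a sum, were also lowest on non-tumour 2 within the non-tumour group. The summed level of the 19 tested of 22 listed, on a linear scale in units of the 75th percentile, was 205, 162 and 219 on non-tumour arrays and 183, 138 and 167 on normal arrays, and the control array with the highest MHC class II median, control non-tumour 1, also had the highest macrophage sum of its group, at 213. The part of macrophages in the class II values was not tested. The macrophage list had a median of 0.28 and 1 member apart higher (5.26%, against 8.14% of all genes), the Kupffer cell lectin gene Clec4f (0.37 ± 0.15), while Adgre1, Csf1r and C1qa overlapped. Of 10 dendritic cell markers 5 were tested: Itgax, well above background on 2 of 3 normal arrays, Zbtb46, Siglech, Bst2 and Batf3. Their sum was 211, 229 and 254 on non-tumour arrays and 235, 237 and 243 on normal arrays. A linear sum follows its brightest members, and the part of each gene in it was not tested. Flt3, Xcr1, Clec9a, Cd209a and Ccr7 had no probe past the filter. Of 16 B and plasma cell markers 6 were tested, among them Cd79a and Cd79b, and Ms4a1 and Pax5 were not.

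MHC class I genes, which present peptides on nearly all cells, had smaller differences, with a median of 0.24 over 13 tested (0.52 with arrays shifted by their median) and 9 apart higher (69.2%, against 8.14% of all genes). Several of these genes are near-identical copies whose probes may share signal. H2-T23 was at 7.26, 7.30 and 7.52 on non-tumour arrays and 7.17, 6.98 and 7.07 on normal arrays (0.29 ± 0.11), and B2m, the shared light chain, at 8.75, 8.77 and 8.69 against 8.68, 8.58 and 8.63 (0.11 ± 0.08). The differences were thus narrow, though the arrays of the groups were apart.

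Acute-phase proteins are made by hepatocytes when interleukin-6 and related cytokines reach the liver. Of 30 tested, 10 lay apart higher (33.3%, against 8.14% of all genes) and 0 apart lower, with a median of 0.21 (0.49 with arrays shifted by their median). The acid glycoprotein gene Orm3 was at 1.80, 1.54 and 1.89 on non-tumour arrays, 0.29, 1.01 and 0.55 on normal arrays, and 2.14, 1.10 and 0.83 on control non-tumour arrays (1.13 ± 0.32, limma adjusted p = 0.47). Lbp, which binds bacterial lipopolysaccharide, was at 4.64, 4.46 and 4.19 against 3.68, 3.87 and 3.63, with control arrays at 4.88, 4.34 and 3.99 (0.70 ± 0.21, limma adjusted p = 0.48). Both were apart in the arsenite line, and the control arrays reached as high as the non-tumour ones.

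Orm1 (0.50 ± 0.18) and Orm2 (0.46 ± 0.17), near copies of each other, the amyloid P gene Apcs (0.34 ± 0.11), the fibrinogen chain gene Fga (0.28 ± 0.11), Crp (0.16 ± 0.10), the iron carrier gene Lcn2 (0.91 ± 0.71), Steap4 (0.31 ± 0.14) and the transcription factor gene Stat3 (0.24 ± 0.12) were also apart. Serum amyloid genes, known as strong acute-phase responders, did not separate the groups: Saa2 was at 7.08, 6.82 and 4.61 on non-tumour arrays and 5.29, 5.67 and 6.01 on normal arrays (0.51 ± 0.70), and Saa1, a near copy whose probe may share signal with it, differed by 0.56 ± 0.68. Non-tumour 3 was the lowest of the 6 arrays for Saa2. The haptoglobin gene Hp differed by 0.02 ± 0.11.

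**Figure D4:**
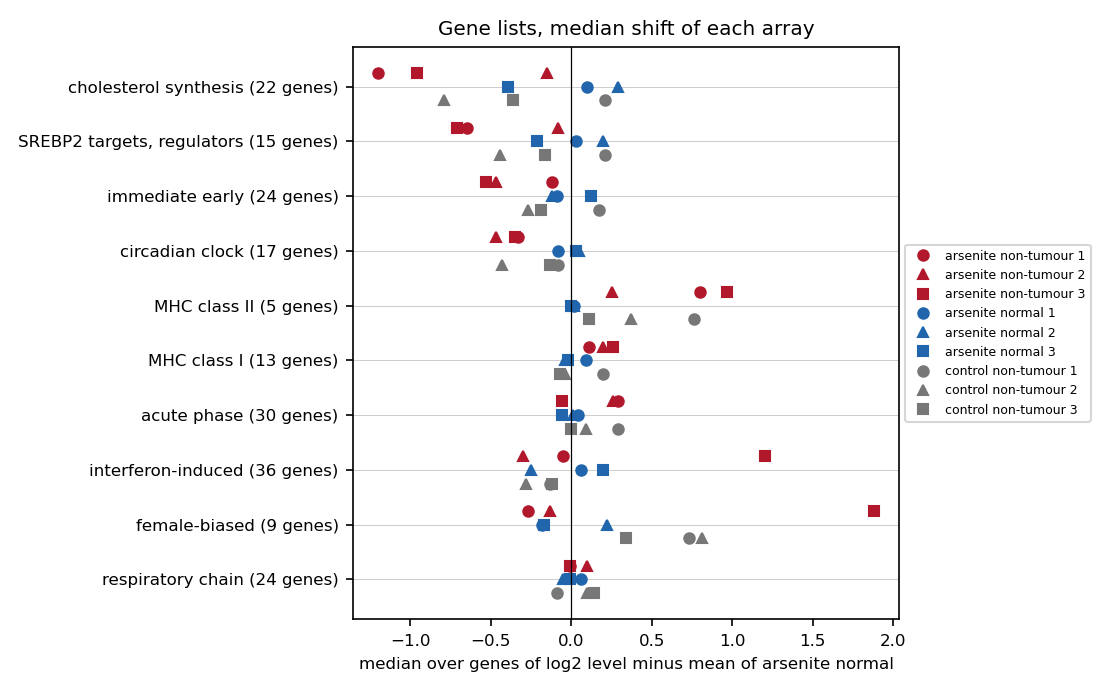
For 10 gene lists (rows, number of genes tested in brackets), the median over genes of the log2 level of an array minus the mean of the 3 arsenite normal arrays; colours mark the groups and symbols the replicate number. Arsenite non-tumour 1 and 3 lie far below 0 for cholesterol synthesis with non-tumour 2 near the normal arrays. Among the arsenite arrays, non-tumour 3 alone lies far above 0 for interferon-induced and female-biased genes. The control non-tumour arrays also lie above 0 for female-biased genes (0.73, 0.81 and 0.34), and control 2 lies below 0 for cholesterol synthesis (-0.79).

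Arsenite non-tumour 3 stood apart from its own group in a pair of lists. Interferon-induced genes had list medians of -0.05, -0.30 and 1.20 on the non-tumour arrays and 0.06, -0.25 and 0.20 on the normal arrays. Isg15, a ubiquitin-like protein of the antiviral response, was at 3.67, 3.35 and 5.98 on non-tumour arrays and 3.83, 3.44 and 4.43 on normal arrays, and Ifit1, which binds viral RNA, at -0.86, -1.63 and 1.98 against -0.75, -1.27 and -0.26. Non-tumour 3 was the highest of the 6 arrays in both genes. The median difference of the 36 tested members was 0.34 with all arrays and -0.14 without that array, where Isg15 was at -0.39 and Ifit1 at -0.49.

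Female-biased liver genes, which male-type growth hormone pulses keep low in male mice, had list medians of -0.27, -0.13 and 1.88 on non-tumour arrays, -0.18, 0.22 and -0.17 on normal arrays and 0.73, 0.81 and 0.34 on control non-tumour arrays. Cyp4a14, a fatty acid hydroxylase gene, was at -1.60, -1.22 and 6.38 on non-tumour arrays and -1.57, 0.61 and -0.12 on normal arrays. Cyp2b9 was at -2.26, -1.20 and 3.14 against -0.94, -0.85 and -1.42, and Cyp3a44 at -1.30, -1.50 and 3.67 against -2.09, -1.12 and -2.37. Non-tumour 3 was again the highest of the 6 in all 3 genes. Male-biased genes had medians of 0.06, 0.07 and -0.67 on the non-tumour arrays and 0.04, -0.10 and 0.07 on the normal arrays. The median difference of the 9 female-biased genes tested was 0.60 with all arrays and -0.27 without non-tumour 3, where Cyp4a14 was at -1.06 and Cyp2b9 at -0.66. Hemoglobin and other red cell markers summed to 1350, 1150 and 616 on the non-tumour arrays and 827, 816 and 1090 on the normal arrays. T and NK cell markers summed to 57.9, 60.4 and 34.0 against 71.9, 61.2 and 54.8. Non-tumour 3 was the lowest of its group in both sums. By the list median it was also the lowest for red cell markers (0.64, 0.34 and -0.63 on the non-tumour arrays) but the highest for T and NK cell markers (0.00, -0.02 and 0.30), and the part of these cells in its other values was not tested.

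Genes that mark the cell cycle and tumours of liver gave mixed values. Of 18 cell cycle genes tested, 5 lay apart higher (27.8%, against 8.14% of all genes) and 2 apart lower (11.1%, against 7.23%). For 4 of the 18 only 1 group let the probe past the filter, which favours a difference, so the count is no support for a shift. The mitotic kinase gene Aurka was at -2.03, -1.91 and -1.87 on non-tumour arrays and -4.09, -2.55 and -2.62 on normal arrays, of which only 2 were well above background, so that the size of the difference was not measured. With normexp background correction it was 0.26. The replication helicase gene Mcm4 was at 0.78, 0.44 and 1.01 against 0.20, 0.21 and 0.25 (0.52 ± 0.21). The G1 cyclin gene Ccnd1 was lower, at -0.18, 0.54 and 0.52 against 0.79, 1.16 and 0.90 (-0.65 ± 0.21), as was Rrm2, a ribonucleotide reductase subunit (-0.33 ± 0.12). Proliferation genes thus stood on both sides, and the marker Mki67, well above background on 2 of 3 normal arrays, overlapped.

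Cdkn1a, the p53-driven inhibitor p21, was at 1.22, -0.18 and 0.11 on non-tumour arrays and -0.38, -0.82 and -0.88 on normal arrays, apart and higher (1.08 ± 0.44, limma adjusted p = 0.57). Of 17 tested liver tumour markers, 3 lay apart higher (17.6%, against 8.14% of all genes) and 1 lower (5.88%, against 7.23%), and 4 passed the filter through 1 group only. Prom1, a membrane glycoprotein of progenitor and duct cells, was at -2.08, -1.57 and -0.86 against -2.57, -2.47 and -2.13 (0.89 ± 0.28, and 0.30 with normexp), with 2 of 3 normal arrays well above background. Tff3, a trefoil peptide of mucus-secreting cells, was lower, at -1.19, 0.12 and -3.65 against 1.31, 0.99 and 0.91. Its non-tumour arrays differed widely and only 2 of 3 were well above background, so that the size of the difference was not measured. The fitted value was -2.64 (limma adjusted p = 0.47), and -1.60 with normexp.

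Several other lists had medians near 0. None of the 24 respiratory chain genes was apart in either direction, and their differences lay between -0.05 and 0.11. The same was true of 21 heat shock chaperones (-0.07 to 0.34) and 12 genes of DNA methylation (-0.26 to 0.35), among which the maintenance methyltransferase Dnmt1 was at -1.67, -1.59 and -1.41 on non-tumour arrays and -1.61, -1.53 and -1.59 on normal arrays. Urea cycle and amino acid genes had a median of 0.04 with 5 of 33 apart higher (15.2%, against 8.14%) and 1 lower (3.03%, against 7.23%). The transaminase gene Got1 differed by 0.47 ± 0.10 and the tyrosine-breakdown gene Hpd by 0.37 ± 0.09, and the highest difference of the list was 0.61. Fatty acid oxidation genes had a median of 0.12 with 5 of 26 apart higher (19.2%, against 8.14%) and 1 lower (3.85%, against 7.23%). The higher ones included Angptl4, which inhibits lipoprotein lipase (0.87 ± 0.31), and the thioesterase gene Acot1 (0.90 ± 0.36).

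Of 20 genes of the pericentral zone, where liver cells surround the central vein, 5 lay apart higher (25%, against 8.14% of all genes) with a median of 0.15. The claudin gene Cldn2 was at 3.28, 3.55 and 3.15 on non-tumour arrays and 2.79, 3.05 and 2.79 on normal arrays (0.45 ± 0.13). The glutamine synthetase gene Glul, a strict pericentral marker, was at 5.77, 5.36 and 5.56 against 5.57, 5.53 and 5.54 (0.02 ± 0.13). The periportal list, of the opposite zone, had a median of 0.05 over 22 genes, with 1 apart lower (4.55%, against 7.23% of all genes).

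Of 13 tested genes of arsenic and metal handling, 2 lay apart higher (15.4%, against 8.14% of all genes) and 2 apart lower (15.4%, against 7.23%), with a median of 0.11. The metallothioneins, which bind zinc, cadmium and arsenic, overlapped between the groups: Mt1 was at 7.95, 6.14 and 7.88 on non-tumour arrays and 5.23, 7.83 and 6.47 on normal arrays, and Mt2 at 7.42, 5.21 and 7.10 against 3.45, 5.63 and 5.41. Heme oxygenase Hmox1 was at 3.00, 3.15 and 2.97 against 2.85, 2.88 and 2.82, apart by a small margin (0.19 ± 0.14). As3mt, the arsenic methyltransferase, was at 0.27, 0.55 and 0.09 against 0.50, 0.74 and 0.71 (-0.35 ± 0.13). Targets of NRF2, the oxidative stress factor, had a median of 0.04 over 28 tested, with 6 apart higher (21.4%, against 8.14%) and 4 lower (14.3%, against 7.23%), the highest being the glutathione transferase gene Gsta2 (0.40 ± 0.12).

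Markers of other cell types were compared as summed linear levels. Endothelial markers (20 of 22 listed were tested) summed to 147 to 166 on non-tumour arrays and 134 to 145 on normal arrays. Of these, 2 lay apart higher (10%, near the 8.14% of all genes), while the sinusoidal marker Lyve1 differed by -0.81 ± 0.34 with overlap (-0.40 with normexp background correction). Neutrophil markers (7 of 14) summed to 134 to 140 against 129 to 140, stellate and fibroblast markers (19 of 19) to 172 to 200 against 181 to 204, and bile duct markers (8 of 13) to 2.69 to 3.71 against 2.66 to 2.76. B and plasma cell markers (6 of 16) summed to 4.51 to 5.71 against 5.17 to 6.31. The pancreatic genes Prss2, Cpa1 and Cela1, the fat gene Adipoq and the muscle genes Myh4 and Ckm had no probe past the filter. Over all these lists, the markers apart higher were Clec4f of macrophages, Lcn2 of neutrophils, Clec4g and Tek of endothelium, Colec10 of stellate cells, Sox9 of bile ducts and Fcmr of B cells, the last not well above background on any normal array. Those apart lower were Col1a1, Reln, the bile duct gene Cldn7 and, in the hepatocyte list, Ppara and Serpina1a, which has near-identical copies.

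Against the control non-tumour arrays, which shared a slide with the arsenite non-tumour arrays, limma called 0 of 17063 genes, with 1143 (6.7%) at an unadjusted p under 0.05. Serpina7 differed by 0.16 ± 0.19 (SE, n = 3 each, limma adjusted p = 0.96) in that comparison, and Egr1 by 0.28 ± 0.52 (limma adjusted p = 0.97). The cholesterol synthesis median was -0.54 and that of MHC class II 0.29. Both comparisons use the same arsenite non-tumour arrays, so these values are not independent of those above.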

How the data were processed

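RNA of 12 mouse liver samples was labelled with 1 dye (Cy3) and hybridised to Agilent arrays, 3 per group. The authors' scanner files give the processed signal of each spot as an intensity after background subtraction, made with Agilent Feature Extraction 10.7.3.1 per the file headers (12.0.3.1 per the submitters' processing notes). Annotation is on mm9 per the file headers. The authors' deposited value table holds a linear ratio, found here to be that signal over the array's 75th percentile of all spots, with no centring. From 59305 non-control spots (55681 probes), log2 levels were taken as described, spots of a probe being averaged without those flagged as outliers by the scanner software. Of 22553 probes past the filter, the one with the highest mean stood for each of 17063 genes, 4132 of which had several. Symbols came from RefSeq by accession (27235 probes), symbol (3581) or synonym (565), and 24300 probes kept the file's name. Limma 3.58.1 (R 4.3.3) fitted 1 mean per group over 9 arrays (2-sided), p was adjusted over all genes, and the fit was tested on simulated data. The number of arrays limits the precision.

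The comparison, the 45 gene lists and the alternatives were chosen with earlier results of these data known. The rule for named genes was the 15 largest called differences in each direction, called list members and their lists, the defining cell type markers, always Dnmt1, Mt1, Mt2, Hmox1, Afp, Glul, Cd74 and Egr1, and, with under 30 genes called, the 15 smallest p in each direction. Other list members were named after their values were seen. Alternatives covered scaling, background correction, filter, probe rule, arrays fitted, replicate block and each array left out. Some genes that meet this rule are not reported here.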

Additional observations from a re-analysis of the deposited data

How the results depend on the processing

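The count of 0 called genes was kept by 12- and 6-array fits, quantile normalisation, the percentile over detected probes, normexp, the deposited value table, every filter and probe rule tried, and the replicate block (0 with 9 arrays and 0 with 6), with limma throughout. Shifting by each array's median moved the median of all genes to 0.288 and called 7 genes, 5 higher and 2 lower (4 against control non-tumour liver), with 3803 at an unadjusted p under 0.05, 3674 higher and 129 lower. Array weights called 1 gene, higher (2091 at an unadjusted p under 0.05), and robust and trended eBayes (both choices at once) 2, 1 higher and 1 lower. No filter gave 0 called and 2872 at an unadjusted p under 0.05. In fits without 1 array, the filter asked only for the remaining arrays of its group, so the genes tested differed. Leaving out 1 array gave 0 to 13 genes, 0 to 2 higher and 0 to 13 lower, and 0 to 14 against control non-tumour liver: arsenite non-tumour 3 gave 3 (1 against control), normal 1 gave 13 (14 against control), normal 2 gave 5, normal 3 gave 13, control 2 gave 0 (1 against control) and control 3 gave 0 (4 against control). Among the genes run again under the alternatives, signs turned under the median shift for Ggps1 (0.14), Alb (0.18), Ttr (0.24) and Hnf4a (0.15). They also turned under normexp for Ttr (0.02), and under array weights for Isg15 (-0.07) and Dnmt1 (-0.01). The median shift is a constant per array, so it raises the difference of every gene alike. Small negative differences of genes not run again, such as Ebp and Scap, would therefore lie above 0 too. With 1 array left out, differences ranged from -0.39 to 0.93 for Isg15, -0.49 to 1.31 for Ifit1, -1.06 to 2.94 for Cyp4a14, -0.66 to 2.04 for Cyp2b9, -0.06 to 0.07 for Dnmt1 and -0.11 to 0.36 for Adgre1, each lowest without non-tumour 3, from -0.09 (without non-tumour 1) to 0.12 for Glul, and from -0.11 to 0.05 (without normal 1) for Ttr; the cause was not tested. The cholesterol median ranged from -1.08 to -0.49 over the 25 alternatives and that of MHC class II from 0.54 to 0.95. The other medians ranged from -0.57 to -0.12 for SREBP2 targets, -0.43 to -0.09 for immediate early, -0.55 to -0.11 for clock, 0.09 to 0.49 for acute-phase, 0.16 to 0.52 for MHC class I, -0.14 to 0.63 for interferon-induced, -0.27 to 1.14 for female-biased and -0.39 to 0.08 for male-biased genes. Deviations of arrays with equal replicate numbers correlated at 0.07, 0.13 and 0.07 and those with unequal numbers at -0.09 to 0. Each array thus correlated best with its own number, a hint from the data and not from the design. Not every pair exceeded 0.1 and no label says what a number marks, so the samples were not treated as paired. The replicate block on 9 arrays, which also ties the control mice to these numbers, gave 1394 genes at an unadjusted p under 0.05, against 1392 without it. On the 6 arrays of the 2 groups the block gave 1639, against 1531 without it. Slide as a block could not be fitted, as the normal arrays were alone on theirs. Dim genes limit the comparison: control spike-ins at the lowest levels differed by up to -0.30 from the bright ones. The bright spike-ins were themselves lower on non-tumour than on normal arrays, by -0.36 to -0.15 on the scaled levels. Their medians per array overlapped, at 5.59, 5.31 and 5.89 on non-tumour arrays and 6.13, 5.71 and 5.81 on normal arrays. The part of this offset in the gene differences was not tested.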
